A study of Rattus norvegicus with 12 samples.

Results

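AMP-activated protein kinase (AMPK) was described through 7 genes: its catalytic subunits Prkaa1 and Prkaa2, its scaffold subunits Prkab1 and Prkab2, its nucleotide-binding subunits Prkag1 and Prkag2, and Stk11, which encodes the upstream kinase LKB1. The members were the rows of the deposited expression table that carry these gene symbols, 7 of 32545 rows, and all 7 were among the 13910 genes that passed the filter on low values. The family was chosen by the measured values of Prkaa2, which differed between the sham ventricles and between the responses of the ventricles to volume overload (VO). Its levels and differences are therefore given as a description with no test, while the other 6 members were tested. The members and the pathway genes described later were chosen with earlier results of these data known, so their tests are not independent of that knowledge.

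The samples were free-wall myocardium of Sprague-Dawley (SD) rats, from the left (LV) or the right ventricle (RV), operated at postnatal day 1 and examined at postnatal day 7. VO was produced by a fistula between the abdominal aorta and the inferior vena cava (AVF), which loads both ventricles, and the control rats had a sham operation. There were 12 RNA-seq libraries in 4 groups of 3, named by operation and ventricle (sham LV and sham RV, VO LV and VO RV), and the labels name no allele or drug treatment. Per the methods, surgery was done under isoflurane and ice cooling, with lidocaine given locally. The labels do not say whether the 3 libraries of a group, or the LV and RV libraries, came from separate animals or litters, so p-values measure only the spread between these samples.

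Values are FPKM, which are fragments scaled to the transcript length and the library size, and recovered reads on genes ranged from 14121714 to 16871372 per library. All 10 ventricular cardiomyocyte markers were detected in every group, with a summed level of 19220 to 30560 FPKM per library. A few properties of the libraries differed between groups or within them. The labels give no sex for the pups. The summed level of 4 Y-linked genes was 0 in all 3 VO LV libraries and also in sham LV replicate 3, sham RV replicate 3 and VO RV replicate 2, 0.034 FPKM in VO RV replicate 1, and 34.9 to 40.6 in the other 5 libraries. The 4 atrial cardiomyocyte markers summed to 1522 FPKM in VO RV replicate 2, against 147.7 to 440.1 in the other libraries. VO RV replicate 2 also had the lowest ventricular marker sum and the highest sum of 6 fibroblast markers (4240 FPKM). Over all tested genes, 8 of 12 libraries were most like a library of another group, and VO RV replicate 3 and sham LV replicate 1 were each other's nearest (r = 0.979 across genes).

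AMPK senses a low energy charge. AMP or ADP bound to the gamma subunit favours phosphorylation of the alpha subunit by LKB1, and the active kinase restrains fatty acid and protein synthesis while favouring glucose uptake, fatty acid oxidation and autophagy. The beta subunit joins alpha to gamma and binds glycogen. Heart muscle uses both alpha isoforms, and alpha2 is known as the main catalytic isoform of the adult heart; around birth the heart turns from glycolysis towards fatty acid oxidation, a step in which AMPK is known to take part.

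The promoters of the alpha genes are shown because these genes, which encode alternative forms of the same catalytic subunit, had the smallest and the largest SD between libraries on the log2 scale among the 7 members. The sequences are the 250 bases before the RefSeq start in the rat build GRCr8, 5′ to 3′ on the gene's strand, with GGGCGG in either orientation (a GC box) in capitals. Prkaa1 is chr2:55967525-55967774 on the plus strand and Prkaa2 is chr5:125108325-125108574 on the minus strand.
Prkaa1: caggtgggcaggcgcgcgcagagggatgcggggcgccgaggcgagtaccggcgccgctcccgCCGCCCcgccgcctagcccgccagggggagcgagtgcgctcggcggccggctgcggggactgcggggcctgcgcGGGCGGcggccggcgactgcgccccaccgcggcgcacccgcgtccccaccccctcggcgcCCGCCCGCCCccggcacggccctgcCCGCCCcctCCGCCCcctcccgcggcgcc
Prkaa2: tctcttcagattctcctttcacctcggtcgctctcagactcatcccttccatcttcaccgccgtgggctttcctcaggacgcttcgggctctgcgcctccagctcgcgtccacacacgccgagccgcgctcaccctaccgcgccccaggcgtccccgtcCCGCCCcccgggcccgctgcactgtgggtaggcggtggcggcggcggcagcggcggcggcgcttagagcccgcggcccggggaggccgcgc
The Prkaa1 window held 45 CG dinucleotides, more than 99.6% of the promoters in the table, with 86.4% G or C and 6 GC boxes, some of which overlap. The Prkaa2 window held 33 CG dinucleotides, more than 96.4% of the promoters, with 72.8% G or C and 1 GC box. A GC box on either strand occurred in 30.5% of 33469 rat promoters of the same length. Neither window held the CCAAT box on either strand, letters found in 34% of the promoters. The TATA box letters TATAAA, found in 12.9% of them, were in neither window. The E-box CACGTG, found in 5.59%, was in neither window either. These matches describe the letters of the windows only.

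Prkaa1 (ENSRNOG00000012799, chr2:54857688-54893404, plus strand; coordinates are those of the deposited table, whose build is not given in the sources used here) encodes alpha1, the catalytic subunit found in most tissues. Its level was 6.57, 7.03 and 8.0 FPKM in sham LV, and 7.36, 6.93 and 6.18 in sham RV. After VO the LV libraries had 6.58, 7.06 and 7.05 FPKM, and the RV libraries 6.82, 7.49 and 6.0. The 4 groups overlapped, and the highest of the 12 libraries was 1.33-fold above the lowest. RefSeq lists pseudogenes of Prkaa1, and the counting could have split reads between them and the gene.

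Prkaa2 (ENSRNOG00000007706, chr5:124574079-124642569, minus strand) encodes alpha2, the catalytic subunit of heart and skeletal muscle. Its level was 2.01, 1.67 and 3.86 FPKM in sham LV, and 23.0, 12.1 and 8.58 in sham RV. After VO it was 11.2, 12.2 and 21.8 FPKM in VO LV, and 7.55, 7.84 and 2.78 in VO RV. The sham LV libraries lay below all sham RV and all VO LV libraries, and the VO RV libraries lay below all sham RV libraries. VO RV replicate 3, which was nearest to sham LV replicate 1 over all genes, lay inside the range of sham LV for Prkaa2. The group means were 2.52 ± 1.18, 14.6 ± 7.53, 15.1 ± 5.89 and 6.05 ± 2.84 FPKM for the LV and RV of sham rats and the LV and RV of VO rats (SD, n = 3).

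The 12 libraries spanned 13.8-fold for Prkaa2, and the SD of log2(FPKM + 0.5) over them was 1.15, larger than that of 98.8% of the tested genes, which includes the differences between groups. About the group means the SD of Prkaa2 was 0.635 on the same scale, larger than that of 94.5% of genes, and that of the other 6 members was 0.12 to 0.162. The other 6 members spanned 1.33-fold to 1.57-fold. For 5 of them the SD over the 12 libraries exceeded that of 8.24% to 24.9% of tested genes, and for Prkag2 it exceeded that of 49.2%. Recovered reads ranged from 72 to 1009 per library for Prkaa2 and from 429 to 628 for Prkaa1, so the lowest Prkaa2 values rest on the fewest reads of any member.

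**Figure D1:**
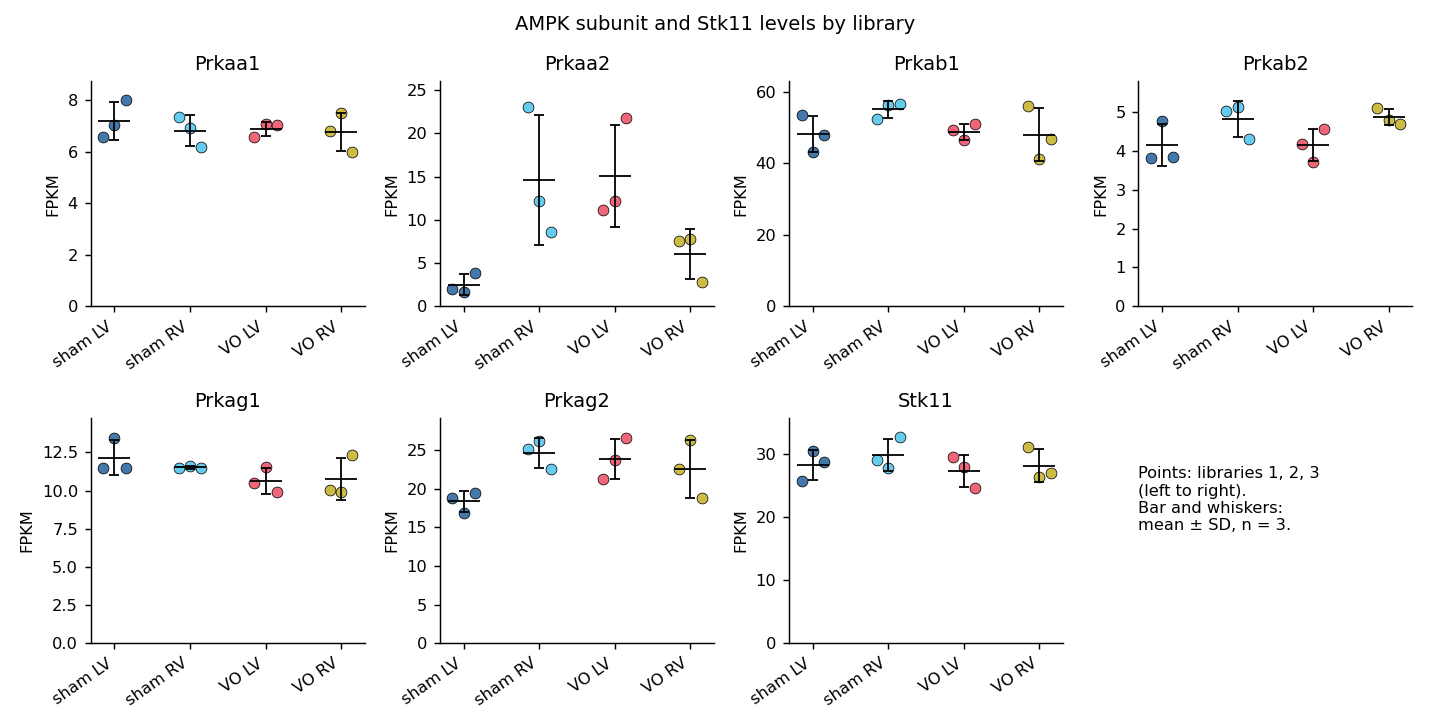
Level of each member (FPKM, linear axis from 0) in the 12 libraries by group, with points for libraries and bars for the mean ± SD (n = 3). Prkaa2 runs from 1.67 to 23.0 FPKM with sham LV lowest, while the other members span at most 1.57-fold.

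Prkab1 (ENSRNOG00000001142, chr12:46316236-46326790, plus strand), which encodes beta1, was the most abundant member per length, at 48.3 ± 5.11 FPKM in sham LV and 55.2 ± 2.35 in sham RV, and after VO at 48.9 ± 2.22 in the LV and 48.0 ± 7.46 in the RV (SD, n = 3). Prkab2 (ENSRNOG00000018166, chr2:199831990-199847629, plus strand), which encodes beta2, the form common in muscle, had the lowest mean over the 12 libraries, at 4.14 ± 0.543, 4.82 ± 0.457, 4.15 ± 0.420 and 4.86 ± 0.209 FPKM in the same order. In Prkab2 the 3 VO LV libraries (4.17, 3.71 and 4.55 FPKM) lay below the 3 VO RV libraries (5.10, 4.80 and 4.69). For Prkab1 the VO LV libraries (49.2, 46.6 and 51.0 FPKM) lay below those of sham RV (52.5, 56.4 and 56.7), a pair that differs in both operation and ventricle and was not compared. The other pairs of groups overlapped for both beta genes.

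Prkag2 (ENSRNOG00000009085, chr4:6559545-6799632, plus strand) encodes gamma2, a gamma subunit prominent in the heart, in which mutations cause a glycogen-storage cardiomyopathy. The 3 libraries of sham LV had 18.9, 16.9 and 19.5 FPKM, and those of sham RV had 25.2, 26.2 and 22.5. After VO the LV libraries had 21.3, 23.8 and 26.6 FPKM, and the RV libraries 22.6, 26.3 and 18.8. All 3 sham LV libraries lay below all sham RV and all VO LV libraries, whereas VO RV overlapped each of the other groups.

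The row named Prkag1 (ENSRNOG00000061499, chr7:140489492-140546908, minus strand) holds, by its span and label, more than the gene for gamma1. It spans 57417 bases, against 17427 for Prkag1 in RefSeq, has an exonic length of 18552 bases and carries the protein family label FYRC, a domain of the histone methyltransferase Kmt2d. RefSeq places Kmt2d, with a span of 41337 bases, beside Prkag1, and 0 rows of the deposited table bear its name. Prkag1 and Kmt2d therefore cannot be told apart in this row, and the values below are those of the joint row. They were 12.1 ± 1.15 FPKM in sham LV and 11.5 ± 0.0871 in sham RV, and after VO 10.7 ± 0.850 in the LV and 10.7 ± 1.36 in the RV (SD, n = 3), with overlapping ranges in all pairs. For the other 6 members the deposited span was 0.95 to 1 times that in RefSeq.

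Stk11 (ENSRNOG00000014287, chr7:12440751-12457513, minus strand) was present at 28.3 ± 2.40 FPKM in sham LV and 29.9 ± 2.59 in sham RV, and after VO at 27.4 ± 2.52 in the LV and 28.2 ± 2.60 in the RV (SD, n = 3), and all groups overlapped.

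By mean level per length over the 12 libraries the order was Prkab1 (50.1 FPKM), Stk11 (28.5), Prkag2 (22.4), the Prkag1 row (11.3), Prkaa2 (9.55), Prkaa1 (6.92) and Prkab2 (4.49). Stk11 was above Prkag2 in 10 of 12 libraries, the Prkag1 row above Prkaa2 in 7 of 12, and Prkaa2 above Prkaa1 in 8 of 12, so the ranges of these neighbours overlapped. The other neighbours were in the same order in 12 of 12 libraries. Only Prkaa2 changed place by more than 1 step between groups: it ranked last by mean in sham LV, below Prkab2, and above the Prkag1 row in sham RV and VO LV.

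The share of each isoform was taken per length within a library. Prkaa2 made up 23.4%, 19.2% and 32.6% of the summed alpha FPKM in sham LV, and 75.8%, 63.6% and 58.1% in sham RV. In VO LV the alpha2 share was 62.9%, 63.2% and 75.6%, and in VO RV it was 52.5%, 51.1% and 31.6%. Alpha1 was thus the larger alpha transcript in all 3 sham LV libraries and in VO RV replicate 3, and alpha2 in the other 8 libraries. The mean alpha2 share was 25.1% ± 6.82 in sham LV, 65.9% ± 9.03 in sham RV, 67.3% ± 7.22 after VO in the LV and 45.1% ± 11.7 after VO in the RV (SD, n = 3). The summed alpha level was 9.72 ± 1.86, 21.4 ± 8.08, 21.9 ± 6.05 and 12.8 ± 3.54 FPKM in the same order.

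The beta2 share was 7.99% ± 1.71 in sham LV and 8.05% ± 0.892 in sham RV, and VO hearts had 7.80% ± 0.408 in the LV and 9.30% ± 1.05 in the RV (SD, n = 3). It was lower in all 3 VO LV libraries than in the 3 VO RV libraries (exact two-sided permutation p = 0.1, adjusted p = 0.267 over 8 share tests). With 3 libraries against 3 the test cannot go below 0.1, and the other beta comparisons gave exact p of 0.3 or more. The gamma2 share, taken with the joint Prkag1 row, was 60.2% ± 4.03 in sham LV and 68.1% ± 1.60 in sham RV, and VO hearts had 69.0% ± 3.34 in LV and 67.5% ± 6.31 in RV. The sham LV libraries lay below the sham RV and the VO LV libraries (exact permutation p = 0.1 and adjusted p = 0.267 for each). Counted in reads rather than per length, the mean alpha2 share was 16.1%, 52.6%, 54.1% and 32.2% in the same order of groups. The mean beta2 share by reads was 17.0% to 19.9%, and the mean gamma2 share was 20.6% to 27.6%. The joint Prkag1 row thus held most of the summed reads, but how many of its reads came from Prkag1 and not from Kmt2d is not known.

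**Figure D2:**
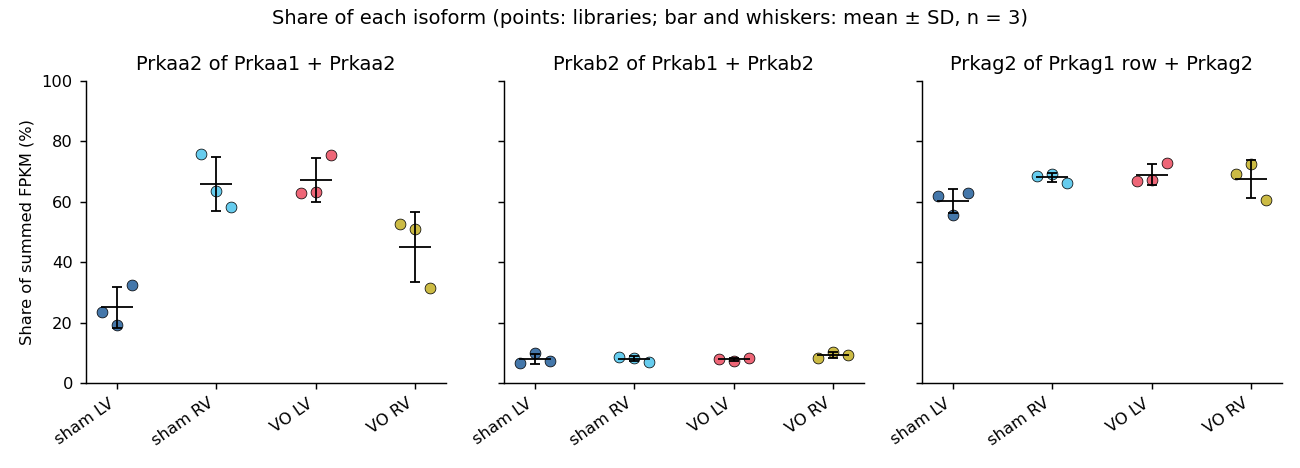
Share of the second isoform in the summed FPKM of its subunit (percent, axis from 0 to 100) in each library, with points for libraries and bars for the mean ± SD (n = 3). The alpha2 share averages 25.1% in sham LV and 65.9% in sham RV, while the beta2 share stays between 7.80% and 9.30% in the group means.

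The first comparison asked how the ventricles differ without load. Prkaa2 had a difference of -2.28 (SE 0.44) on the log2(FPKM + 0.5) scale for sham LV minus sham RV, given as a description. Prkag2 differed by -0.41 (SE 0.13, 95% interval -0.69 to -0.13), with lower values in 3 of 3 sham LV libraries, and missed the threshold (limma, adjusted p = 0.0807). Prkab1 and Prkab2 each differed by -0.20, with adjusted p of 0.288 and 0.30. For Prkaa1 the difference was 0.07 (95% interval -0.17 to 0.31) and for Stk11 it was -0.08 (95% interval -0.31 to 0.15). A gene was called at an adjusted p under 0.05 with a fold over 1.3. By that rule 0 of the 6 members other than Prkaa2 were called, against 3.85% of all tested genes, and 1 of 6, Prkag2, passed an unadjusted p under 0.05 with the same fold, against 17.8%. Prkag2 was called with array weights (adjusted p = 0.0374) and without VO RV replicate 3 (adjusted p = 0.0491). Groups did not overlap for 1 of these 6, again Prkag2, against 32.2% of all genes.

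Other properties moved with this comparison. The summed level of the 5 endothelial markers matched in the table was 395 to 419.3 FPKM in sham LV and 269.2 to 302.6 in sham RV, with 302.9 to 336.2 in VO LV and 282.7 to 363 in VO RV. The 4 red blood cell markers matched summed to 2123 to 4796 FPKM in sham LV and 1133 to 2248 in sham RV, ranges that overlapped. The 6 macrophage markers summed to 38.7 to 42.49 FPKM in sham LV and 31.4 to 37.88 in sham RV. The longest 10% of genes relative to the shortest 10% lay at -0.28 to -0.16 on the log2 scale in sham LV and at -0.03 to 0.27 in sham RV. With the gene-length trend removed, the Prkaa2 difference was -2.24, and with the atrial marker sum as a covariate it was -2.08. The part of the cell makeup in these differences was not tested, and in bulk tissue fewer cells of a type and less RNA per cell cannot be told apart.

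The second comparison asked how VO changed the LV. The log2 difference of Prkaa2 was 2.37 (SE 0.44) for VO LV minus sham LV, a fitted fold of 5.18. The difference of Prkag2 was 0.37 (SE 0.13, 95% interval 0.09 to 0.65) and was higher in 3 of 3 VO LV libraries, but was not called (limma, adjusted p = 0.129). The Prkag1 row differed by -0.18 (adjusted p = 0.325), and Prkaa1, Prkab1, Prkab2 and Stk11 had differences between -0.05 and 0.02. By limma, 0 of the 6 members tested were called, against 0.0935% of all genes, and 0 of 6 passed the unadjusted threshold, against 15.7% of genes. Among these 6 the groups did not overlap for Prkag2, against 32.4% of all genes. With the summed level of Y-linked genes as a covariate, the difference was 2.09 for Prkaa2 and 0.30 for Prkag2. The part of sex, which the labels do not give, was not tested beyond this.

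Other properties moved with this comparison too. The length measure lay at -0.28 to -0.16 in sham LV and at -0.03 to 0.15 in VO LV, and with the gene-length trend removed the Prkaa2 difference was 2.34. The 6 fibroblast markers summed to 2273 to 2505 FPKM in sham LV and to 1854 to 2247 in VO LV. The macrophage markers summed to 34.77 to 37.04 FPKM in VO LV, below the sham LV range, and the endothelial markers, given above, were also lower in all 3 VO LV libraries. Their part in the differences was not tested.

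The third comparison asked how VO changed the RV. Prkaa2 had a log2 difference of -1.20 (SE 0.44) for VO RV minus sham RV, and of -0.76 without VO RV replicate 3. Prkab1 differed by -0.21 (adjusted p = 0.637) and Prkag2 by -0.13 (adjusted p = 0.787), and the other 4 members had differences between -0.10 and 0.02. By limma 0 of the 6 members tested were called, and so were 0% of all genes. The unadjusted threshold was passed by 0 of 6 members and by 4.91% of genes. For these 6 the groups overlapped, whereas they did not for 12.5% of all genes. The macrophage markers summed to 38 to 61.12 FPKM in VO RV, above the sham RV range, and the 4 smooth muscle markers to 208.7 to 337.1 against 143.8 to 204.8 in sham RV. Their part in the difference was not tested.

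Under load the ventricles were compared directly. The log2 difference of Prkaa2 was 1.3 (SE 0.44) for VO LV minus VO RV, or 0.86 without VO RV replicate 3. Prkab2 differed by -0.21 (95% interval -0.47 to 0.05) and was not called (limma, adjusted p = 0.525). Prkag2 differed by 0.08 (95% interval -0.20 to 0.36). Of the 6 members tested, 0 were called by limma, against 0.00719% of all genes, and 0 passed the unadjusted threshold, against 7.4%. Among them the groups did not overlap for Prkab2, against 16.1% of all genes. The macrophage marker sums of VO LV and VO RV did not overlap either, and their part was not tested.

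The response of the LV (VO LV minus sham LV) minus that of the RV (VO RV minus sham RV) was tested as an interaction. Prkaa2 had a value of 3.58 (SE 0.63) on the log2 scale, which had drawn the choice of the family and is given as a description. For Prkag2 it was 0.50 (SE 0.18, 95% interval 0.10 to 0.89), which missed the threshold (limma, adjusted p = 0.123). Prkab1 gave 0.23 (adjusted p = 0.378), and Prkaa1, Prkab2, the Prkag1 row and Stk11 gave values between -0.08 and 0.04. By limma 0 of the 6 members tested were called, against 4.19% of all genes, and 1 of 6, Prkag2, passed the unadjusted threshold, against 23.1%. The median over all genes was within 0.04 of 0 on the log2 scale in every comparison.

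**Figure D3:**
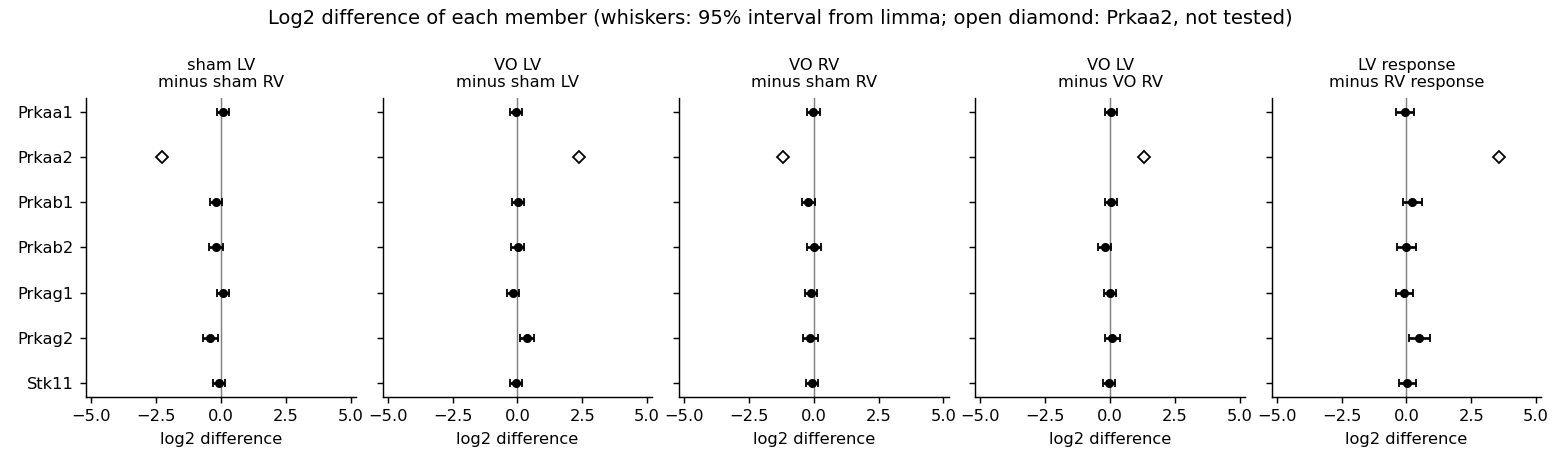
Log2 difference of each member in the 5 comparisons (from limma on log2(FPKM + 0.5)), with a line at 0, 95% intervals as whiskers for the 6 tested members, and an open diamond with no interval for Prkaa2, which drew the choice. The values of Prkaa2 lie between -2.28 and 3.58, and those of the other members between -0.41 and 0.50.

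The genes whose pattern was most like that of each member were ranked by Pearson correlation over the 12 libraries among 12666 other genes with a mean of at least 1 FPKM. The libraries share their groups, so these values are descriptions. The 8 genes closest to Prkaa2 were Prkce (r = 0.995), a protein kinase C, Mob1b (r = 0.991), a Hippo pathway adaptor, Ccnd2 (r = 0.990), a cyclin of the cell cycle, the kinases Nek9 (r = 0.990), Hipk3 (r = 0.989) and Csnk2a1 (r = 0.989), Chrm2 (r = 0.990), the muscarinic receptor of the heart, and Zfp106 (r = 0.988). Prkce was at 2.69, 2.36 and 3.66 FPKM in sham LV and at 10.5, 7.43 and 6.19 in sham RV. After VO it was at 7.10, 7.78 and 10.8 FPKM in the LV and at 4.96, 5.71 and 2.83 in the RV, the same order of libraries within each of the 4 groups as for Prkaa2. In all, 511 genes, or 4.03%, had r above 0.9 with Prkaa2, and 143 had r below -0.9.

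The other members had less close neighbours. For Prkag2 they were Med14, a Mediator subunit (r = 0.975), Mtfr1, a regulator of mitochondrial fission (r = 0.975), and Golph3, a Golgi protein (r = 0.974), and 222 genes, or 1.75%, had r above 0.9. The Prkag1 row was closest to Mdm4 (r = 0.943), Prdm15 (r = 0.939) and Gne (r = 0.929). Prkaa1 was closest to Maoa (r = 0.886), Spata33 (r = 0.811) and Prex2 (r = 0.808). The closest gene was Trappc5 for Prkab1 (r = 0.879, then Nsun2 and Usp30), Hectd2 for Prkab2 (r = 0.890, then Agr2 and Nasp), and Keap1 for Stk11 (r = 0.870, then AABR07015081.1 and Tex30). Between members, Prkag2 had r = 0.888 with Prkaa2, Prkaa1 had r = 0.202 and the Prkag1 row had r = -0.574 (12 libraries each). Prkag3, the gamma3 gene that is not a member, ranged from 1.54 to 4.93 FPKM and had r = -0.804 with Prkaa2.

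**Figure D4:**
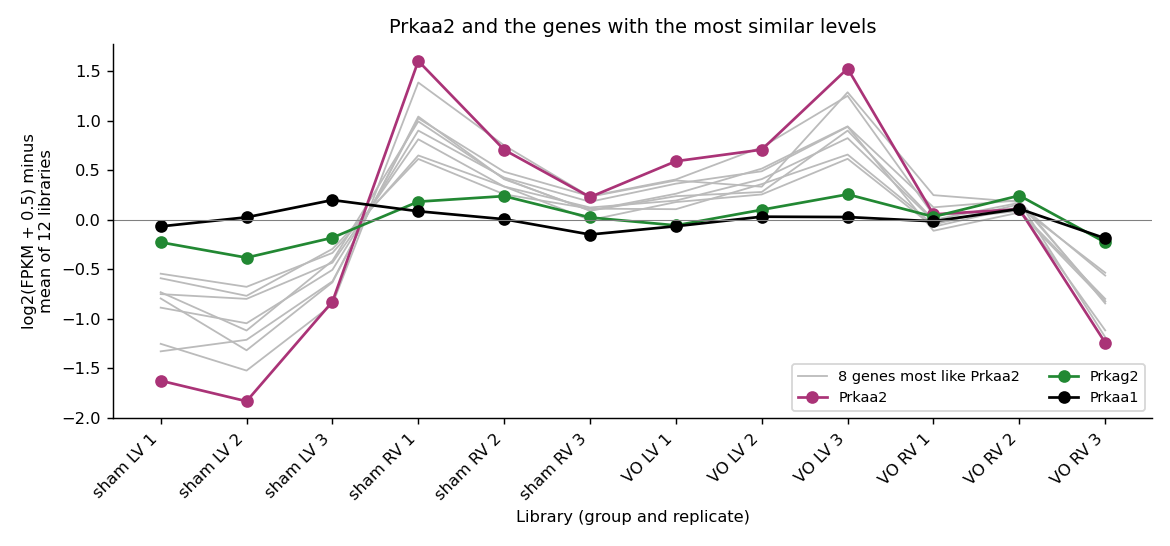
Level of Prkaa2, Prkag2, Prkaa1 and the 8 genes most like Prkaa2 in each library, as log2(FPKM + 0.5) minus the mean of the 12 libraries. The Prkaa2 line is lowest in the sham LV libraries and VO RV replicate 3 and highest in sham RV replicate 1 and VO LV replicate 3, and the Prkaa1 line stays near 0.

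The wider pathway was read from a list of which 72 genes were tested. It held upstream kinases, other subunit and binding partners, related kinases, substrates, and genes of fuel uptake and of adenine nucleotide and phosphocreatine balance. In sham LV minus sham RV, 5 of 72 (6.94%) were called lower and 0 higher, against 2.35% and 1.5% of all genes. They were Nuak1, a kinase related to AMPK (-0.66, SE 0.10, adjusted p = 0.0319), Ampd3, an AMP deaminase (-0.86, adjusted p = 0.0319), Gpam, which starts triglyceride synthesis (-1.27, adjusted p = 0.0387), Rptor, the mTORC1 subunit that AMPK phosphorylates (-0.40, adjusted p = 0.0442), and Ppargc1a, a coactivator of mitochondrial biogenesis (-0.78, adjusted p = 0.0496; limma throughout). Gpam was at 5.2, 3.76 and 5.89 FPKM in sham LV against 18.4, 11.8 and 8.76 in sham RV. Ppargc1a was at 4.06, 4.44 and 5.75 FPKM against 10.04, 7.77 and 7.72, and neither gene's groups overlapped. The count was 0 without sham LV replicate 1 or 2, without sham RV replicate 1 or 2, or without VO LV replicate 2, which also left 0 to 5 genes called in the whole table. It was also 0 with replicate number as a block (3 genes called in all), with such a block within treatment (0) and with all genes above 0 FPKM (8). Array weights gave 10, with 1321 genes called in all.

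For VO LV minus sham LV, 1 of 72 pathway genes (1.39%) was called, higher, against 0.0719% of all genes. It was Sik1, a salt-inducible kinase that LKB1 activates, at 5.05, 4.84 and 4.68 FPKM in sham LV and 13, 15.2 and 15.6 in VO LV. Its log2 difference was 1.49 (SE 0.18, limma, adjusted p = 0.0333). With the mean log2 level of the Y-linked genes as a covariate the difference was 1.47 and the call ended (adjusted p = 0.152), in a fit that called 0 genes in the whole table. The call also ended without sham LV replicate 1 or 2 or any of the 3 VO LV libraries (adjusted p from 0.0708 to 0.226). In these fits the Sik1 difference was 1.45 to 1.57, and each called 0 genes in the whole table. In VO RV minus sham RV the Sik1 difference was 0.80, not called (adjusted p = 0.482). Gpam (1.41), Rptor (0.45), Ppargc1a (0.92) and Acaca (0.85), whose product makes malonyl-CoA and is inhibited by AMPK, were next by p in the LV and were not called, with adjusted p from 0.0519 to 0.0588. The count of pathway genes called ran from 0 with the Y-linked covariate to 10 with array weights. Leaving out any 1 library gave 0 to 7.

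After VO the RV had 0 of 72 pathway genes called by limma, against 0% of all genes, and the genes with the smallest p after Sik1 were Nuak1 (-0.46), Cpt1b (-0.37), Cd36 (-0.33) and Mlycd (-0.30), with adjusted p from 0.482 to 0.547. Cpt1b, Cd36 and Mlycd belong to fatty acid uptake and oxidation. In VO LV minus VO RV the count was again 0 of 72, against 0.00719% of all genes, and Cd36 (0.47), Ulk1 (0.54), which starts autophagy, Ckb (0.35), Gpam (0.87) and Snrk (0.23) had the smallest p, with adjusted p from 0.239 to 0.316. The unadjusted threshold was passed by 3 of 72 (4.17%) and 7 of 72 (9.72%) in these comparisons, against 4.91% and 7.4% of all genes.

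The difference of responses was called for 7 of 72 pathway genes (9.72%), all with a higher response in the LV, against 3.46% of all genes in that direction. Gpam gave 2.14 (SE 0.39, limma, adjusted p = 0.0277), Rptor 0.68 (adjusted p = 0.0312), Nuak1 0.72 (adjusted p = 0.0319), Ppargc1a 1.31 (adjusted p = 0.0329) and Acaca 1.21 (adjusted p = 0.0407). Gys1, glycogen synthase (1.05, adjusted p = 0.0461), and Cpt1b (0.69, adjusted p = 0.0484) complete the count. By list these were 2 of 7 substrates in lipid metabolism, 1 of 6 in glucose metabolism, 1 of 8 in growth, autophagy and translation, 1 of 11 in transcription, 1 of 11 related kinases and 1 of 6 genes of fuel uptake. The count was 0 of 9 for adenine nucleotide and phosphocreatine balance, 0 of 7 for other subunit and binding partners and 0 of 7 for LKB1 partners and other upstream kinases. Gpam was at 11.7, 13.9 and 16.1 FPKM in VO LV and at 9.05, 8.61 and 4.99 in VO RV, and the order of its 4 group means was that of Prkaa2. The count was 0 without sham LV replicate 1 or 2, sham RV replicate 1 or 2, or VO LV replicate 2 or 3. These 6 fits called 0 to 4 genes in the whole table, and leaving out any 1 library the difference ranged from 1.87 to 2.38 for Gpam and from 0.61 to 0.74 for Rptor. The count was 1 when VO RV replicate 3 was left out, 4 when VO LV replicate 1 was, and 12 when VO RV replicate 1 was. It was 0 with replicate number as a block, with such a block within treatment and with all genes above 0 FPKM, and 12 with array weights or the atrial covariate. The sham LV and sham RV libraries enter both this comparison and the sham comparison, so the genes called in both are not independent counts.

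Of the 7 genes for the LKB1 partners Strada, Stradb, Cab39 and Cab39l and the other AMPK kinases Camkk1, Camkk2 and Map3k7, 0 were called by limma in any of the 5 comparisons, and 0 passed the unadjusted threshold. Over all genes the called shares were 3.85%, 0.0935%, 0%, 0.00719% and 4.19%, and the unadjusted threshold was passed by 17.8%, 15.7%, 4.91%, 7.4% and 23.1%. Cab39, which holds LKB1 in its active form, was at 28.7 ± 3.14 FPKM in sham LV, 30.04 ± 0.97 in sham RV, and after VO 29.98 ± 3.24 in the LV and 27.8 ± 2.19 in the RV (SD, n = 3). Camkk2, a calcium-dependent AMPK kinase, was at 3.83 ± 0.167, 3.85 ± 0.535, 4.46 ± 0.656 and 3.56 ± 0.203 FPKM in the same order. The median log2 difference of the 72 genes was -0.07, 0.13, -0.09, 0.10 and 0.20 in the 5 comparisons in the order given, beside 0.01, -0.02, 0.00, 0.01 and -0.04 for all tested genes.

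**Figure D5:**
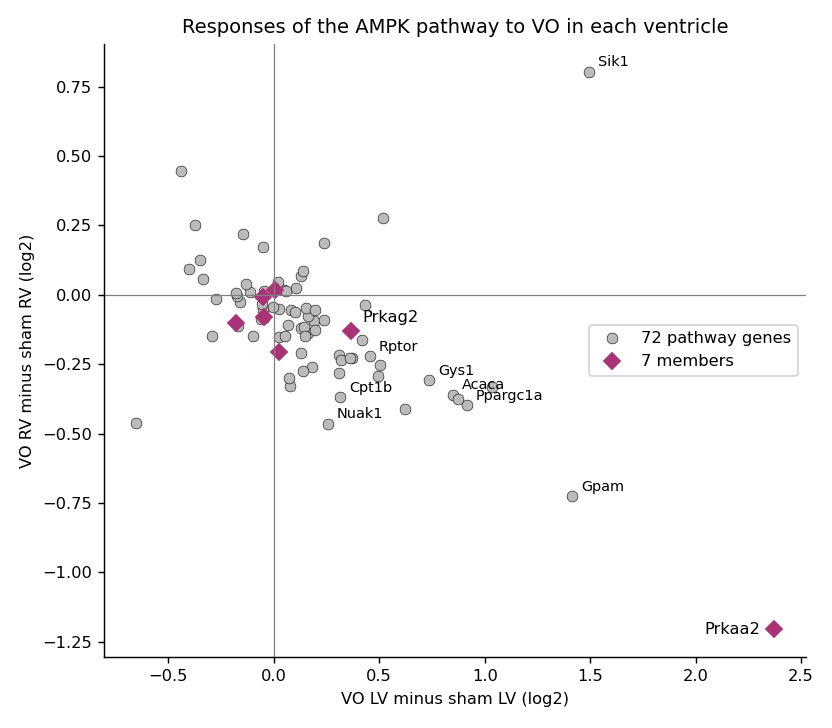
Log2 difference VO RV minus sham RV (vertical) against VO LV minus sham LV (horizontal) for the 7 members (diamonds) and 72 pathway genes (circles), on the log2(FPKM + 0.5) scale. Prkaa2 lies farthest out at 2.37 and -1.20, with Gpam at lower right between it and the other genes, and Sik1 lies above 0 on both axes.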

How the data were processed

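RNA was extracted from LV and RV free walls, and poly-A libraries were sequenced on an Illumina instrument. Per the labels and methods, the authors aligned reads with HISAT2 2.0.5, counted them per gene with featureCounts 1.5.0-p3 and deposited FPKM values for each library; StringTie 1.3.3b and GATK 3.7 are also named. The genome build is not given in the sources used here, nor is the use of strand. Low values were whole multiples of 1 read (100% of values under 200 reads, within 0.02), and reads were recovered from these steps. The deposited FPKM were divided by median-ratio size factors (0.9965 to 1.002). log2(FPKM + 0.5) was fitted with limma 3.58.1 (trend) in R 4.3.3 over 12 libraries and 13910 genes with a mean of at least 0.5 FPKM, with Benjamini-Hochberg adjustment over all of them. limma was the main test because the deposited unit is FPKM, and limma-voom was run on the recovered reads as an alternative. On simulated data for VO LV minus sham LV, 187 of 200 changed genes were called, with 11 unchanged ones. The members and gene lists were chosen with earlier results of these data known. Named genes were the members, up to 5 pathway genes per comparison by p, and the 3 genes (8 for Prkaa2) most like each member; Gys1 and Cpt1b in the difference of responses, Cab39, Camkk2 and Prkag3 were added after their values were seen. Of 76 pathway genes, 3 were too low to test and 1 had several rows. Promoters came from RefSeq (GRCr8), and all 7 members matched by symbol. Alternatives covered scaling, pseudocount, filter, weights, covariates, a replicate block and leaving out each library. Columns of values left unmapped numbered 0.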

Additional observations from a re-analysis of the deposited data

Results flagged for a closer look

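By limma's interaction test 7 of 72 pathway genes had a response to VO that differed between the ventricles, against 4.19% of all genes called. Under a replicate block, and in 6 of the 12 fits that left out 1 library, 0 of 72 were called, and these fits called 1 gene and 0 to 4 genes in the whole table. Without any 1 library the difference was 1.87 to 2.38 for Gpam and 0.61 to 0.74 for Rptor. The response of all 7 was higher in the LV on the log2 scale: Gpam 2.14, Ppargc1a 1.31, Acaca 1.21, Gys1 1.05, Nuak1 0.72, Cpt1b 0.69 and Rptor 0.68, with adjusted p from 0.0277 to 0.0484. Their part in common with library composition, the Y-linked level or the gene-length trend was not tested beyond the alternatives given below.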

How the results depend on the processing

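The calls of pathway genes moved with the processing, and so did the calls over all genes, which in the sham comparison ran from 0 with a replicate block within treatment to 1321 with array weights. The cause was not tested. Counts below are for sham LV minus sham RV, VO LV minus sham LV and the difference of responses, unless 1 is named. Of the 6 members other than Prkaa2, 1 was called in the sham comparison with array weights, Prkag2 (adjusted p = 0.0374), and leaving out 1 library gave 0 to 1, the 1 being Prkag2 without VO RV replicate 3 (adjusted p = 0.0491). Under the other alternatives, limma-voom included, 0 of the 6 were called in any of the 5 comparisons. Pathway calls in the sham comparison were 3 with a pseudocount of 1, 0 with all genes above 0, 10 with array weights, 3 with the length trend removed and 2 with a separate fit. They were, for VO LV minus sham LV, 4 with a mean of at least 1 FPKM, 10 with array weights, 6 with the atrial covariate, 0 with the Y-linked covariate, 6 with voom and 3 with a separate fit. In the difference they were 0 with all genes above 0, 12 with array weights, 4 with the length trend removed, 12 with the atrial covariate and 2 with the Y-linked covariate. Leaving out 1 library gave 0 to 8, 0 to 7 and 0 to 12, and 0 to 1 in VO LV minus VO RV. Voom on recovered reads called 684, 339 and 804 genes in all.

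The fit with a replicate block called 0 of the 6 members and 0 pathway genes in the sham comparison and in the difference, as did a block within treatment. Same-numbered libraries did not deviate together: the correlations of their deviations were 0.0446, 0.0377 and 0.123 for sham LV with sham RV and 0.0533, -0.0508 and -0.218 for VO LV with VO RV, so the numbers were not taken to pair the samples. The Y-linked sum was 0 in VO LV replicate 3 and 34.89 FPKM in VO RV replicate 3, which libraries of the same pup would not show. In sham the sums were alike by number (40.57, 38.51 and 0 in LV, 38.87, 38.58 and 0 in RV), which does not show that these libraries are pairs.

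Differences near 0 changed sign in places. For VO LV minus sham LV this was so with quantile normalization (Prkab1 -0.0013 and Prkab2 -0.0053), with array weights (Prkab1 -0.035 and Stk11 0.040) and with the gene-length trend removed (Prkab2 -0.052). In VO RV minus sham RV this was so with quantile normalization (Prkaa1 0.012), with array weights (Prkab2 -0.011) and with the gene-length trend removed (Prkaa1 0.042 and Prkag1 0.057). For VO LV minus VO RV this was so with quantile normalization (Prkab1 -0.0015), with array weights (Prkab1 -0.0016) and with the gene-length trend removed (Prkaa1 -0.0046), with the atrial marker covariate (Prkab1 -0.035), with the Y-linked covariate (Prkaa1 -0.00063 and Prkag1 0.037). In the difference of responses this was so with array weights (Prkab2 0.061) and with the gene-length trend removed (Stk11 -0.024), with the Y-linked covariate (Prkab2 0.020). Leaving out each library in turn changed the sign of the following. In sham LV minus sham RV, it gave values for Prkag1 from -0.0057 to 0.11, Prkaa1 from -0.0036 to 0.13. In VO LV minus sham LV, it gave values for Prkab2 from -0.055 to 0.10, Prkab1 from -0.050 to 0.10, Stk11 from -0.11 to 0.030, Prkaa1 from -0.11 to 0.021. In VO RV minus sham RV, it gave values for Prkaa1 from -0.083 to 0.071, Prkab2 from -0.056 to 0.058. In VO LV minus VO RV, it gave values for Prkag1 from -0.065 to 0.085, Stk11 from -0.099 to 0.034, Prkab1 from -0.062 to 0.15, Prkaa1 from -0.054 to 0.10, Prkag2 from -0.041 to 0.20. In the difference of responses, it gave values for Stk11 from -0.032 to 0.11, Prkab2 from -0.069 to 0.085, Prkaa1 from -0.12 to 0.032, Prkag1 from -0.13 to 0.018. Prkaa2 kept its sign without any 1 library, at -2.58 to -1.90 in sham, 2.08 to 2.67 in VO LV minus sham LV, -1.51 to -0.76 in VO RV minus sham RV, 0.86 to 1.54 in VO LV minus VO RV and 3.13 to 3.88 in the difference.

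By reads instead of per length, the mean shares for the sham LV, the sham RV, the VO LV and the VO RV groups were 16.1%, 52.6%, 54.1% and 32.2% for alpha2, 17.3%, 17.5%, 17.0% and 19.9% for beta2 and 20.6%, 26.6%, 27.6% and 26.5% for gamma2. With Prkag3 in the sum the gamma2 share was, by the same order of groups, 54.6%, 64.6%, 64.9% and 62.0%. Depth limits Prkaa2 most, since its lowest library rests on 72 recovered reads.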
